A study of Mus musculus with 4 samples.

Results

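The Otog and Kif19a program is a set of 8 genes, Otog, Kif19a, Prss33, Fbxo2, Tmod1, Acbd7, Paqr6 and Bricd5, which were chosen by their UMI counts, as leading genes of the Cldn3-high thymic epithelial cells of these same libraries. All 8 were found by symbol among the 32285 features of the 4 count matrices. Their height in that epithelial type is therefore what selected them, and it is given below as a description without a test. The difference between genotypes was not part of the rule and was tested, although most of the cells that set the choice came from mutant libraries.

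The study asked how thymic epithelial cells (TECs) change when Foxn1, the transcription factor that TECs need to develop and to keep their identity, is impaired. CD45-negative stromal cells were sorted from thymi of 6-month-old C57BL/6 mice, with 2 libraries of wild-type mice from the Foxn1LacZ mock group (WT 1 and WT 2) and 2 of mice homozygous for LacZ in the Foxn1LacZ mutant group (Z/Z 1 and Z/Z 2), all untreated. The LacZ allele is hypomorphic, so some Foxn1 function is kept, and the allele is carried in every cell of the mutant. Per the protocol, 10 to 15 thymi were pooled for a preparation, and nothing in the labels ties a library to separate animals, so p-values measure the spread between these libraries, which may be technical. The labels give the sex both as female and as male.

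Age-associated TECs (aaTECs) are an epithelial state of the ageing thymus. Those called aaTEC1 are recognised by Cldn3, a tight-junction claudin, with Plet1 and the keratins Krt5 and Krt8. The 8 genes are known from other tissues. Otog encodes otogelin, a glycoprotein of the acellular membranes of the inner ear. Kif19a is a kinesin-8 motor that trims microtubules and limits the length of motile cilia. Fbxo2 is the F-box subunit of an SCF ubiquitin ligase that recognises high-mannose glycoproteins and is abundant in the cochlea. Tmod1 caps the pointed ends of actin filaments. Prss33 is a serine protease, Acbd7 belongs to the acyl-CoA-binding proteins, Paqr6 is a membrane progestin receptor of the PAQR family, and Bricd5 carries a BRICHOS domain.

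The genes lie on 6 chromosomes of GRCm38. Otog occupies chr7:46240987-46311434 on the plus strand and Kif19a chr11:114765388-114790739 on the plus strand. Tmod1 (chr4:46038935-46116032) and Fbxo2 (chr4:148160621-148166424) share chromosome 4 at a distance. Prss33 (chr17:23833347-23836056, minus strand) and Bricd5 (chr17:24473884-24475469) share chromosome 17. Acbd7 lies at chr2:3336168-3340993 and Paqr6 at chr3:88364584-88368541. Bricd5 sits, over all of its 1586 bases, inside Mlst8 on the opposite strand, and Tmod1 overlaps Tstd2 on the opposite strand over 1287 bases. The labels name Cell Ranger 7.01 for the mapping, and how it treats strand was not examined here. Only reads within these overlaps are in question, which for Tmod1 is 1287 of 77098 bases. Without strand, such reads could not be told apart.

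The promoters of 4 genes are shown because the 8 genes share a place of highest level and because a FOXN1 core could be looked for in them. Each runs 5′ to 3′ from 250 bases before to 50 bases after the RefSeq start (GRCm38.p6). Capitals mark matches to the motifs searched on both strands: the FOXN1 core GACGC, the forkhead motif GTAAACA, the RFX X-box half-site GTTGCCA, the grainyhead-like motif AACCNGTT, the TATA box TATAAA and the GC box GGGCGG. The Otog window is chr7:46240737-46241036, that of Fbxo2 is chr4:148160418-148160717, that of Tmod1 is chr4:46038972-46039271 and that of Paqr6 is chr3:88364339-88364638, all on the plus strand.
Otog: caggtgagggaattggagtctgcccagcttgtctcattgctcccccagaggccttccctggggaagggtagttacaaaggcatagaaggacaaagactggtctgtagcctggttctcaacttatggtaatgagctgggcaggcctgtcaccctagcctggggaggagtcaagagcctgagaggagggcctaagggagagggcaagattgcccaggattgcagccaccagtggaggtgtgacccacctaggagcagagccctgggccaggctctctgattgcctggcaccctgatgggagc
Fbxo2: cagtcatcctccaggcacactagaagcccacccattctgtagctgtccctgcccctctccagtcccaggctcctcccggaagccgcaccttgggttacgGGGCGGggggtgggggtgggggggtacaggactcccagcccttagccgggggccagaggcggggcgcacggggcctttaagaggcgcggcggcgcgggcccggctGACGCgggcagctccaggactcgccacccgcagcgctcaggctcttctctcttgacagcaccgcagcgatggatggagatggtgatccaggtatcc
Tmod1: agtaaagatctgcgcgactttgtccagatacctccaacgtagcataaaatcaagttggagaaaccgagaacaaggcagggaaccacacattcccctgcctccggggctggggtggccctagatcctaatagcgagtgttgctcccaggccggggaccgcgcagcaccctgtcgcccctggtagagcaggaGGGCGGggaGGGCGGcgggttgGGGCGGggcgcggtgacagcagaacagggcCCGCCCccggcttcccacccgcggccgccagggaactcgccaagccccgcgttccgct
Paqr6: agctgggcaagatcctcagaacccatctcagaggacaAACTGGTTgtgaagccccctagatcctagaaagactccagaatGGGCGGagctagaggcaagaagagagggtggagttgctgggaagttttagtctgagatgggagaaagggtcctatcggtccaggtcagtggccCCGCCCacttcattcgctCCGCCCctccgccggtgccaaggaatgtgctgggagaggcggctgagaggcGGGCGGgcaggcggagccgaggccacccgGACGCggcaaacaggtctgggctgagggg
The GACGC core was present in the windows of Fbxo2 and Paqr6, 2 of the 7 members matched, and in 27.4% of 27025 RefSeq promoters of the same length. The grainyhead-like motif was in the window of Paqr6 and in 2.01% of all promoters. The GC box was in the windows of Fbxo2, Tmod1 and Paqr6 and in 35.9% of all. The windows of Otog, Prss33, Acbd7 and Bricd5 held none of the 6 motifs. The forkhead motif, the X-box half-site and the TATA box were in none of the 7 windows, against 3.55%, 4.46% and 14.2% of all promoters. The window of Fbxo2 also covers the start of Fbxo44, a related F-box gene that runs the other way from 138 bases upstream of the annotated start of Fbxo2. A match is a match of letters in one window and was not measured as a bound site.

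After filtering, 1436 cells of WT 1, 450 of WT 2, 4426 of Z/Z 1 and 3459 of Z/Z 2 were kept, of which 545, 107, 1972 and 1624 were TECs. Median UMIs per kept cell ranged from 6468 to 12062. Libraries of one genotype shared called barcodes, 202 between the WT libraries and 249 between the Z/Z libraries, against at most 6 across genotypes. Of these, 16 and 28 were kept in both libraries, and the copy with fewer UMIs held a median of 3.43% and 1.95% of the UMIs of the other. Foxn1, the altered gene, stood in TECs at 91.8 and 118 CPM (UMIs of a gene per 1000000 UMIs of the same cells) in the WT libraries and at 50.0 and 66.8 CPM in the Z/Z libraries, so both mutant libraries were lower. In the aaTEC1-like cells described below the order was the other way, with 1 and 0 Foxn1 UMIs (4.33 and 0 CPM) in WT and 166 in each Z/Z library (30.4 and 36.1 CPM). With the lesser copy of each shared barcode left out, an alternative added after seeing the data, 7 of the 8 genes were called in sums of all TECs, 0 in aaTEC1-like cells and 3 in the other TECs, the same counts as below. With both copies left out, the calls were 0, 1 and 0.

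TECs fell into 16 clusters, built without the 8 genes. One of them, with 455 cells, had all 4 aaTEC1 markers detected and is called aaTEC1-like. Cldn3 in it was 325, 162, 288 and 415 CPM in WT 1, WT 2, Z/Z 1 and Z/Z 2, against 95.3, 74.2, 33.3 and 64.1 in the other TECs. Plet1 was 26.0, 378, 307 and 311 CPM against 62.9, 18.1, 63.4 and 58.7, so the aaTEC1-like cells of WT 1 were below the rest for this marker. Krt8 ranged from 3011 to 6216 CPM against 941 to 1602. Krt5 ranged from 186 to 815 CPM against 157 to 194, and was higher in aaTEC1-like cells in each library. Cldn3, Krt5 and Krt8 were thus higher than in the other TECs in 4 of 4 libraries and Plet1 in 3 of 4. The cluster was named from these 4 markers, so their levels describe the label and do not test it. Cldn3 was also present elsewhere: tuft-like cells held 158 to 245 CPM, and mTEC2-like cells, which were also led by Cd52, Srgn and Cyba, genes of immune cells, held 79.8 to 254 CPM. The other aaTEC type, aaTEC2-like cells, held 0 to 2.64 CPM of Cldn3 where present.

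In the WT libraries, 15 cells (2.75% of TECs, interval 1.55% to 4.50%) and 8 cells (7.48%, interval 3.28% to 14.2%) were aaTEC1-like. The Z/Z libraries had 245 (12.4%, interval 11% to 14%) and 187 (11.5%, interval 10.0% to 13.2%). Both Z/Z shares were above both WT shares, by 6.85 percentage points on average, and with 2 libraries a group the exact permutation test cannot go below p = 0.333, which is the value it gave. The cells were deep in Z/Z, with a median of 13350 and 15335 UMIs against 5647 and 5379 in the other TECs, and about as deep as the rest in WT (16789 and 19253 against 15762 and 16952). They therefore supplied 26.7% and 25.4% of all TEC UMIs in Z/Z and 1.89% and 8.07% in WT. Of the WT 2 cells, 6 of 8 carried a barcode that was also called in another library. The same was true of 1 of 15 cells in WT 1, 64 of 245 in Z/Z 1 and 29 of 187 in Z/Z 2.

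**Figure D1:**
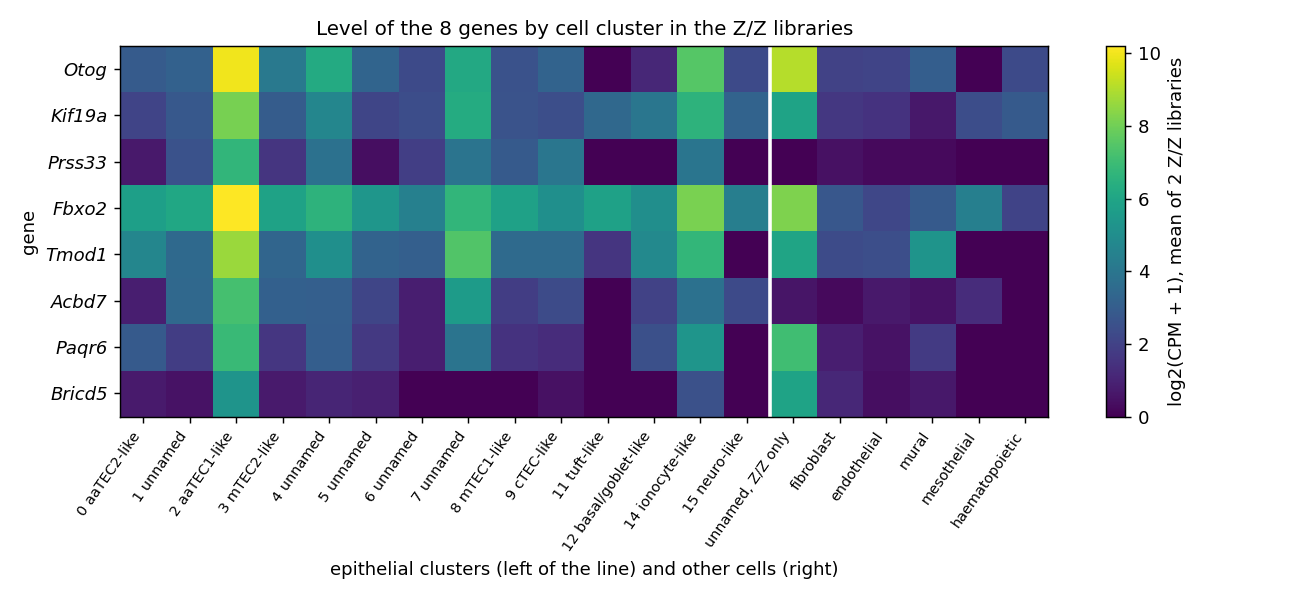
Mean level of each gene over both Z/Z libraries, as log2(CPM + 1), in the 14 epithelial clusters with at least 5 cells in each and in 6 other groups of cells. Every gene was highest among epithelial clusters in the aaTEC1-like cluster, and Otog, Fbxo2, Paqr6 and Bricd5 were also raised in an unnamed cluster outside the TECs. All genes share the same colour scale.

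The order was taken over the 14 epithelial clusters with at least 5 cells in each Z/Z library. Across these, the aaTEC1-like cells held the highest level of each of the 8 genes, and in none of the 8 did their lower library overlap the next cluster. This is the pattern by which the genes were picked. Otog was at 1198 CPM in Z/Z 1 and 827 in Z/Z 2. Next came the ionocyte-like cluster, named for Foxi1 and Cftr, with 330 and 33.4 CPM in only 20 and 9 cells, of which 2 and 1 held an Otog UMI, followed by an unnamed cluster led by Gpc5 and Kirrel3 (107 and 44.7 CPM) and one led by Gm26917 and Lars2 (124 and 17.2 CPM). These 3 overlapped one another, so their order is not resolved. A cluster led by Igkc and Fabp4 was outside the order, with 92 cells in Z/Z 2 and 0 in Z/Z 1. It held Otog at 144 CPM in Z/Z 2, with a UMI in 25 cells, at a median depth of 2232 UMIs. Tuft-like cells held 0 UMIs of Otog in both libraries.

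Kif19a was at 289 and 257 CPM in aaTEC1-like cells, followed by ionocyte-like cells (97.4 and 91.8 CPM) and the Gm26917 cluster (113 and 40.2 CPM), which overlapped. The ionocyte-like level of Kif19a came from 1 and 2 cells. Fbxo2 was at 1057 and 1305 CPM, with ionocyte-like cells at 406 and 167, where 14 of 20 and 5 of 9 cells held it, and the fifth cluster of its order still held 61.4 and 71.7 CPM. Tmod1, at 420 and 397 CPM, was next highest in the Gm26917 cluster (141 and 201 CPM), above the ionocyte-like cells (132 and 83.5 CPM) without overlap. Acbd7, at 175 and 116 CPM, had the same second cluster, with 66.4 and 28.7 CPM. Second place did not overlap the third for Fbxo2 and Paqr6, where it was held by ionocyte-like cells, and for Tmod1 and Acbd7, where it was held by the Gm26917 cluster. For the other 4 genes it was not resolved.

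Prss33 was at 98.3 and 109 CPM in aaTEC1-like cells, against 7.48 and 22.9 CPM in cTEC-like cells, whose range overlapped that of the next 3 clusters. Paqr6 was at 109 and 129 CPM, against 44.0 and 33.4 in ionocyte-like cells, from 1 and 2 cells with a UMI. Bricd5 was at 29.9 and 45.7 CPM, and its next cluster, the ionocyte-like cells, held 9.43 and 0 CPM, on 3 UMIs of 1 cell. Over the 4 libraries and on the log2(CPM + 1) scale, the median difference of the 8 genes between aaTEC1-like and other TECs was 4.90 ± 0.69 (SD, n = 4), with 5.83 and 5.00 in the WT libraries, and 4.25 and 4.53 in the Z/Z libraries. A pseudocount of 10 CPM lowered it to 3.77.

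Acbd7 departed from the other genes in WT. In the 15 aaTEC1-like cells of WT 1 it had 0 UMIs, which allows a share of cells with a UMI of up to 20.0%, and in the 8 cells of WT 2 it had 5 UMIs. The 99 Acbd7 UMIs of WT 1 TECs all lay in other TECs, 77 of them in mTEC2-like cells. In the Z/Z libraries, by contrast, 89.9% and 89.7% of Acbd7 UMIs in TECs lay in aaTEC1-like cells. Its log2 difference between the classes was thus -3.21 and 2.52 in the WT libraries, and 4.43 and 4.41 in the Z/Z libraries, and no other gene was negative in a library.

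For the other 7 genes, most TEC reads came from the aaTEC1-like class in most libraries. Otog UMIs in that class were 84.9% and 98.6% of all TEC UMIs of the gene in the WT libraries, against 93.1% and 94.9% for Z/Z. For Paqr6 the shares were 84.8%, 95%, 88.4% and 91%. For Tmod1 they were lower in WT, 43.7% and 73.2%, than in Z/Z, 86.4% and 88.2%. These shares move with the number of aaTEC1-like cells as well as with their level.

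Few cells stood behind the WT values. In WT 2, a single aaTEC1-like cell held 75.8% of the Otog UMIs, 79.2% of those of Kif19a, 85.7% of those of Prss33 and 84.2% of those of Paqr6, whereas in Z/Z no cell held more than 14.0% of any of the 8. For Fbxo2 that share was 43.4% and for Tmod1 53.3%, so 1 cell weighed heavily in the WT 2 levels of the class.

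Single cells of the aaTEC1-like class often held several of the 8 genes. The genes were picked as leading genes of such cells, so the contrast with other cells is a description. The share expected if the genes were detected independently of one another was not computed. With each cell thinned to 2000 UMIs, 79.4% of 243 aaTEC1-like cells in Z/Z 1 and 77.8% of 176 in Z/Z 2 held at least 2 of the 8 genes, and 38.3% and 31.8% held at least 4. In WT the share with at least 4 was 53.3% of 15 cells and 25% of 8 cells. In the other TECs at most 0.299% of cells held 4 or more in any library, and in fibroblasts, which should lack the genes, none of 592, 192, 1205 and 733 did, which allows at most 1.56% in the smallest of these. Thinning left out 2 and 11 shallower aaTEC1-like cells in Z/Z and 0 in WT. Without thinning, an aaTEC1-like cell of Z/Z held a median of 6 of the 8 genes and another TEC 0, and 29 and 30 cells held all 8.

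**Figure D2:**
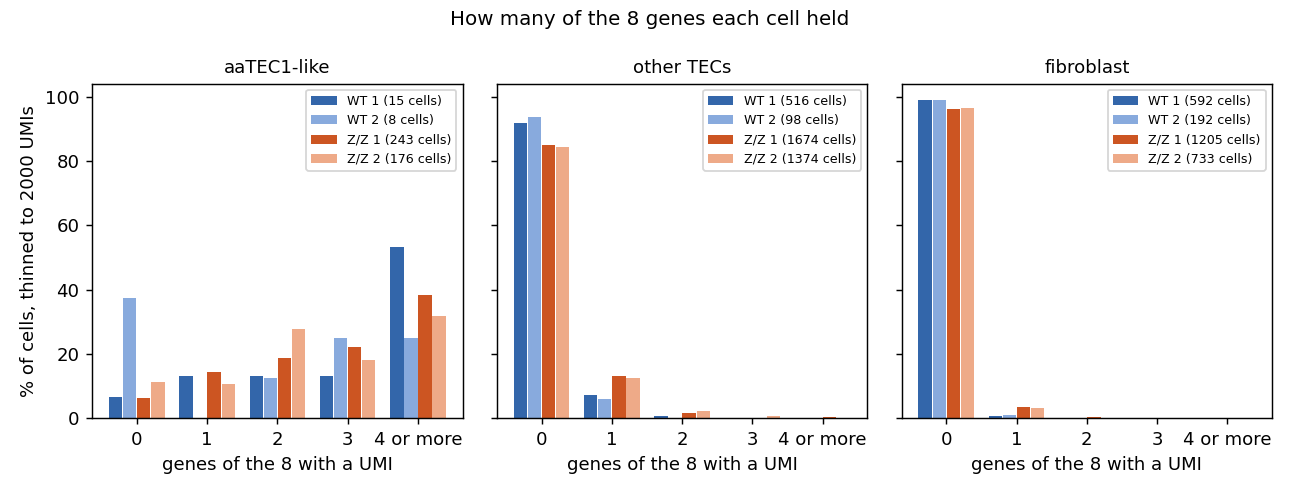
Percent of cells, each thinned to 2000 UMIs, by the number of the 8 genes with at least 1 UMI, for aaTEC1-like cells, other TECs and fibroblasts in each library. Bars for 2 or more genes are tall in aaTEC1-like cells and close to 0 in the other 2 groups.

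Otog itself was not in every aaTEC1-like cell. Before thinning it was detected in 71.4% of them in Z/Z 1 and 66.8% in Z/Z 2, after thinning in 61.7% (interval 55.3% to 67.9%) and 49.4% (41.8% to 57.1%). In fibroblasts of the same libraries the thinned share was 1.25% and 0%, at median depths of 9494 and 9461 UMIs against 13350 and 15340 in aaTEC1-like cells. Thinned cells with an Otog UMI more often held the others: Prss33 was found in 23.3% of Otog-positive and 8.60% of Otog-negative cells of Z/Z 1, and in 27.6% and 10.1% of those of Z/Z 2. For Paqr6 the pairs were 23.3% and 9.68%, then 27.6% and 10.1%. Bricd5 did not separate in Z/Z 1 (5.33% and 5.38%) and did so in Z/Z 2 (13.8% and 5.62%). No test was run across cells, because cells of 1 library are not replicates.

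Cldn3, by which the study recognised aaTEC1, was not detected in every cell with the program. In Z/Z TECs thinned to 2000 UMIs, Otog stood at 133 and 54.7 CPM in cells with 0 Cldn3 UMIs, at 1190 and 683 CPM with 1 UMI and at 764 and 443 CPM with 2 or more. In WT 1, Otog stood at 85.5, 74.5 and 364 CPM in the same bins, the last of which held 22 cells and only 1 aaTEC1-like cell. When cells with 2 or more Cldn3 UMIs were taken in place of the aaTEC1-like cluster, the median log2 difference of the 8 genes fell to 2.01 from 4.90.

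The main comparison asks whether the genes differed between genotypes, first over all TECs. Otog was at 65.7 CPM in WT 1 and 84.9 in WT 2, and at 343 in Z/Z 1 and 222 in Z/Z 2. Fbxo2 was at 40.4, 69.8, 332 and 375 CPM in the same order, and Tmod1 at 18.2, 32.5, 130 and 114 CPM. In these 3 genes both Z/Z libraries lay above both WT libraries. Kif19a was at 12.5, 23.0, 86.8 and 71.4 CPM, Paqr6 at 3.77, 7.93, 32.9 and 36.1 CPM, and Acbd7 at 8.12, 5.16, 51.9 and 32.9 CPM. The groups were again apart in each. Prss33 was at 2.05, 13.9, 28.9 and 33.0 CPM, and Bricd5 at 0.820, 1.59, 8.81 and 11.8 CPM. The WT libraries differed most in Prss33, where WT 2 rested on 35 UMIs and WT 1 on 25.

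In sums of all TECs, 7 of the 8 genes rose in Z/Z, and Prss33 did not pass (adjusted p = 0.0872). The fold was 4.19 for Otog (log2 2.07, SE 0.27, edgeR adjusted p = 0.00931), 7.25 for Fbxo2 (2.86, SE 0.29, 0.00646) and 5.18 for Kif19a (2.37, SE 0.33, 0.0102). It was 5.54 for Tmod1, 6.71 for Acbd7, 7.23 for Paqr6 and 10.9 for Bricd5, with adjusted p of 0.00814, 0.00855, 0.00926 and 0.0103. Over all 18939 genes tested, 10.8% were called higher and 12.8% lower, and the median log2 change was -0.0006, against 2.61 for the 8 genes. In the same sums the aaTEC1-like class supplied a larger part of the UMIs in Z/Z, as given above. The 8 genes were picked for their height in that class, so these sums move with its share as well as with levels per cell. The part of the class share in these folds was not tested. Without Z/Z 1 the test called 0 of the 8 genes and 0 of all genes, and without Z/Z 2 it called 5 and 1257. With 1 library left out, an arm has a single library, the spread comes from the other genotype alone, and the lone library is assumed to vary like it.

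**Figure D3:**
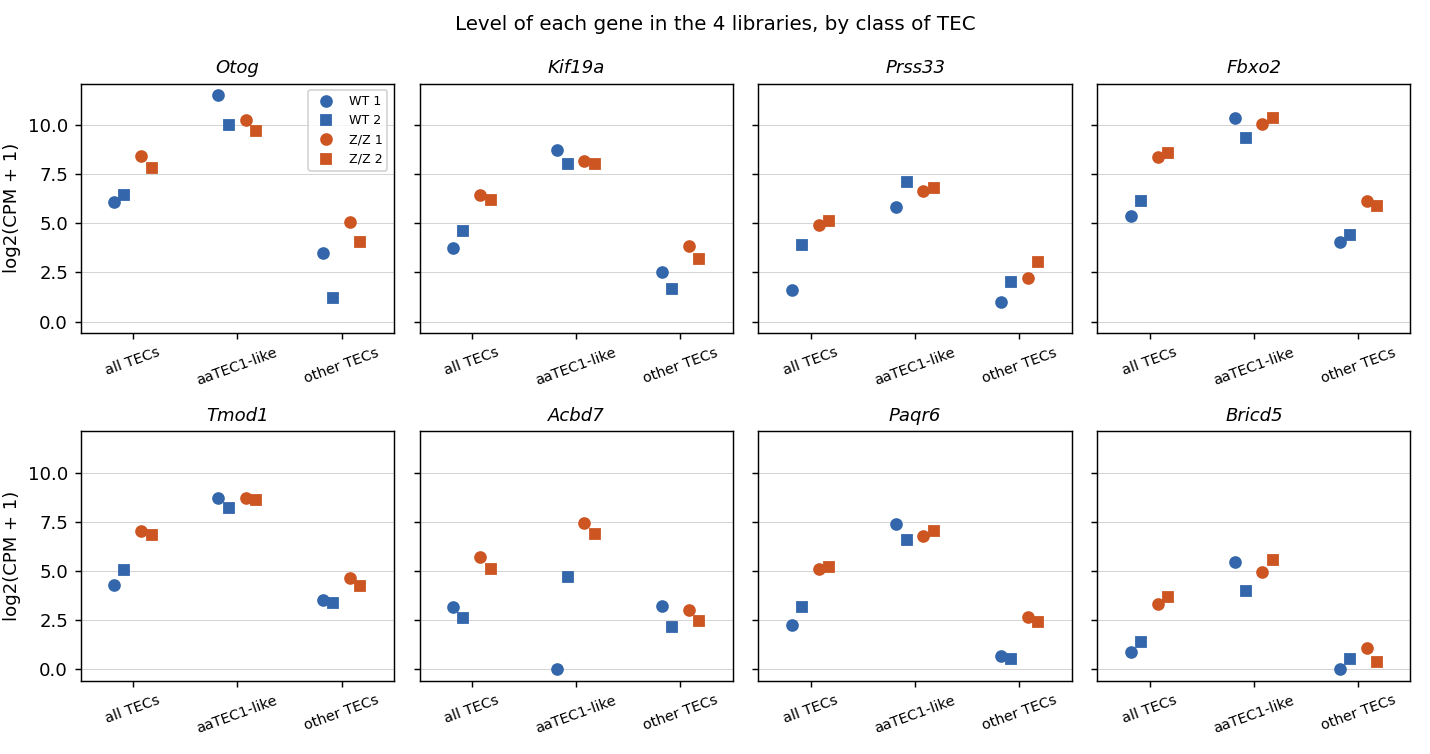
Level of each gene as log2(CPM + 1) in each of the 4 libraries (WT blue, Z/Z orange), for all TECs, aaTEC1-like cells and the other TECs. In all TECs both Z/Z points lie above both WT points for the 8 genes. In aaTEC1-like cells they overlap for all but Acbd7.

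Within aaTEC1-like cells the libraries of both genotypes overlapped for 7 of the 8 genes. Otog was at 2944 and 1036 CPM in the WT libraries, and at 1198 and 827 CPM in the Z/Z libraries. Kif19a was at 416, 260, 289 and 257 CPM and Fbxo2 at 1325, 634, 1057 and 1305 CPM. For these genes the WT libraries spanned or overlapped the Z/Z libraries. Tmod1 was at 420, 295, 420 and 397 CPM, Paqr6 at 169, 93.3, 109 and 129 CPM, and Prss33 at 56.3, 138, 98.3 and 109 CPM. Here too the groups overlapped. Bricd5, on 10 and 3 UMIs in WT, was at 43.3, 14.7, 29.9 and 45.7 CPM. Acbd7 was the exception, with 0 and 24.6 CPM in WT and 175 and 116 in Z/Z.

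None of the 8 genes passed the test in aaTEC1-like cells with edgeR, 1 had an unadjusted p under 0.05 (Acbd7), and DESeq2 called 1. Over the 11951 genes tested, 0% were called higher and 0.0167% lower, which is 2 genes (Grin3a and Nalcn), and 1295 had an unadjusted p under 0.05. The log2 change was -1.0 for Otog (SE 0.49, edgeR adjusted p = 0.492) and -0.33 for Kif19a (SE 0.34, 0.78). It lay between -0.16 and 0.33 for Prss33, Fbxo2, Tmod1, Paqr6 and Bricd5, with SE of 0.33 to 0.55 and adjusted p of 0.861 to 0.947. For Acbd7 it was 3.63 (SE 0.72, adjusted p = 0.168). With 1 library left out, 24 to 654 genes were called in place of 2, Acbd7 among them in each of these fits and Otog in the one without WT 2 (log2 -1.55). As above, 1 arm of such a fit is a single library, and these calls are no support for a change that the full fit did not call. The median over the 8 was 0.14, against 0.10 over all genes tested. On simulated sums of the same sizes, the fit recovered 42.7% of genes changed 4-fold and missed the others. The simulation gave every gene the same fixed spread and did not model the 15 and 8 WT cells. The weight of single cells in WT 2 was thus not part of it, and the power for the 8 genes was not measured.

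**Figure D4:**
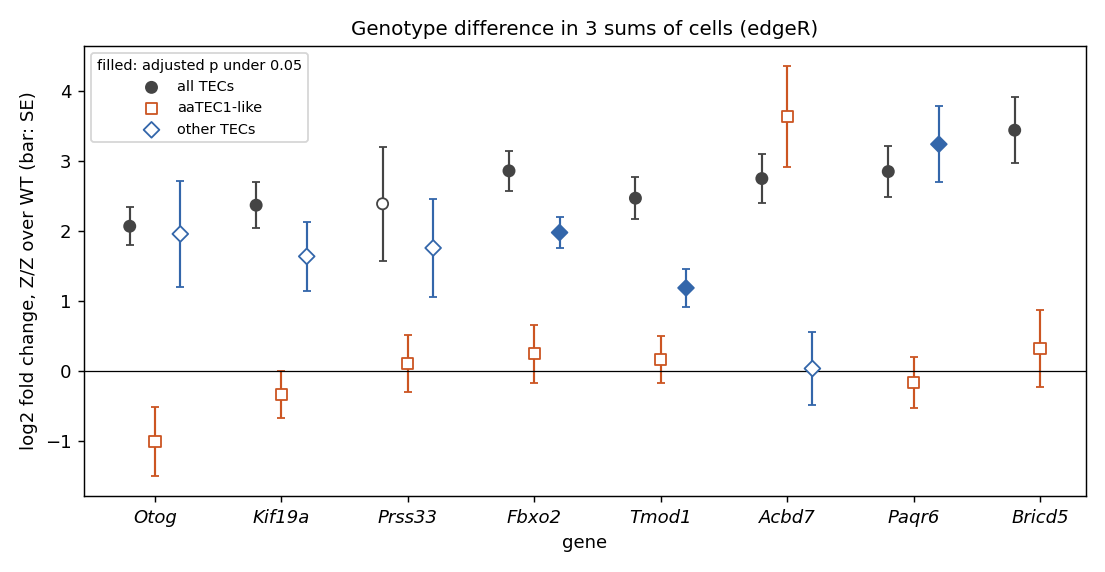
Log2 fold change of each gene, Z/Z over WT, with its standard error, in sums of all TECs, aaTEC1-like cells and other TECs (edgeR). Filled symbols passed an adjusted p of 0.05. In aaTEC1-like cells 7 of the 8 genes lie between -1.0 and 0.33, and Bricd5 was not tested in the other TECs.

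In the other TECs the genes were low, and 3 of the 7 tested rose in Z/Z. Fbxo2 was at 15.6 and 20.3 CPM in WT and at 68.8 and 58.2 in Z/Z, and rose 3.94-fold (log2 1.98, SE 0.22, adjusted p = 0.00995). Paqr6 was at 0.585 and 0.431 CPM, on 7 and 1 UMIs, and at 5.21 and 4.38 in Z/Z (log2 3.24, SE 0.54, adjusted p = 0.0188). Tmod1 was at 10.4 and 9.49 CPM and at 24.0 and 18 in Z/Z (log2 1.19, SE 0.27, adjusted p = 0.0362). Over all genes, 9.15% of 18655 were called higher and 10.5% lower. Without Z/Z 1 the count of the 8 genes called was 0, without Z/Z 2 it was 1 and without WT 2 it was 2. Otog, at 10.1 and 1.29 against 32.2 and 15.3 CPM, did not pass (log2 1.96, adjusted p = 0.123), nor did Kif19a (1.64, 0.0714) or Prss33 (1.76, 0.133). Acbd7 did not pass, at 8.27 and 3.45 against 7.14 and 4.53 CPM (log2 0.04, SE 0.52, adjusted p = 0.969). Bricd5, with 0, 1, 17 and 4 UMIs, was too low to be tested.

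Free RNA was measured beside these low levels. In barcodes under 100 UMIs, taken here as free RNA, Otog was at 12.9 and 11.3 CPM in WT and 171 and 97.2 in Z/Z, and Fbxo2 at 21.1 and 15.5 against 188 and 187 CPM. Each of the 8 genes was higher there in both Z/Z libraries, Acbd7 included (3.09 and 1.19 against 15.1 and 14.2 CPM), whose level in the other TECs did not pass. After an estimate of free RNA (7.28% to 12.3% of the UMIs of the other TECs) was subtracted, the log2 change in the other TECs was 1.61 for Fbxo2 (edgeR adjusted p = 0.0275), 2.53 for Paqr6 (0.0508) and 0.91 for Tmod1 (0.0952), so 1 was called in place of 3. The part of free RNA in these differences beyond that estimate was not tested. Whether a genotype difference in aaTEC1-like cells differed from that in other TECs was not tested.

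A second population carried part of the program. One cluster of 151 cells fell outside the TECs and outside every other named lineage, with 113 cells in Z/Z 1 and 38 in Z/Z 2. None of the 1436 WT 1 cells fell in it, a count that allows a share of up to 0.209%, and none of the 450 WT 2 cells did (up to 0.667%). Its leading genes were Trpm3, Dbi, Lsamp, Csmd1 and Ndrg2. Cldn3 was almost absent from it, with 3 and 0 UMIs. Sox10, a transcription factor of neural crest and otic cells, was at 161 and 153 CPM, and S100b, a calcium-binding protein of glia, at 188 and 134 CPM. In the aaTEC1-like cells of these libraries Sox10 was at 66.0 and 71.6 CPM and S100b at 5.68 and 6.96. Epcam was at 113 and 88 CPM, against 1800 and 1930 in aaTEC1-like cells, and Krt18 at 236 and 325 CPM. Gfap, the defining glial filament gene, was at 8.22 and 53.6 CPM, and 4.42% and 2.63% of the cells held it.

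In that cluster the 8 genes split. Otog was at 670 CPM in Z/Z 1 and 390 in Z/Z 2, below the aaTEC1-like cells of the same libraries and far above the other TECs. Paqr6, at 141 and 126 CPM, overlapped the aaTEC1-like range of 109 to 129. Bricd5, at 66.8 and 53.6 CPM, was above the aaTEC1-like cells in both libraries. Fbxo2 (304 and 295 CPM), Kif19a (60.6 and 57.4 CPM) and Tmod1 (50.3 and 72.7 CPM) were lower than in aaTEC1-like cells and higher than in the other TECs. Prss33 had 0 UMIs in both libraries and Acbd7 had 1 and 0. Prss33 was thus detected in 0 of 113 and 0 of 38 cells, which allows a share of cells with a UMI of up to 2.65% and 7.89% at this depth and does not limit the share that expressed it. Thinned to 2000 UMIs, 39.8% and 39.5% of its cells held at least 2 of the 8 genes, and 2.65% and 2.63% at least 4. It has no WT cells, so no genotype comparison was possible.

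**Figure D5:**
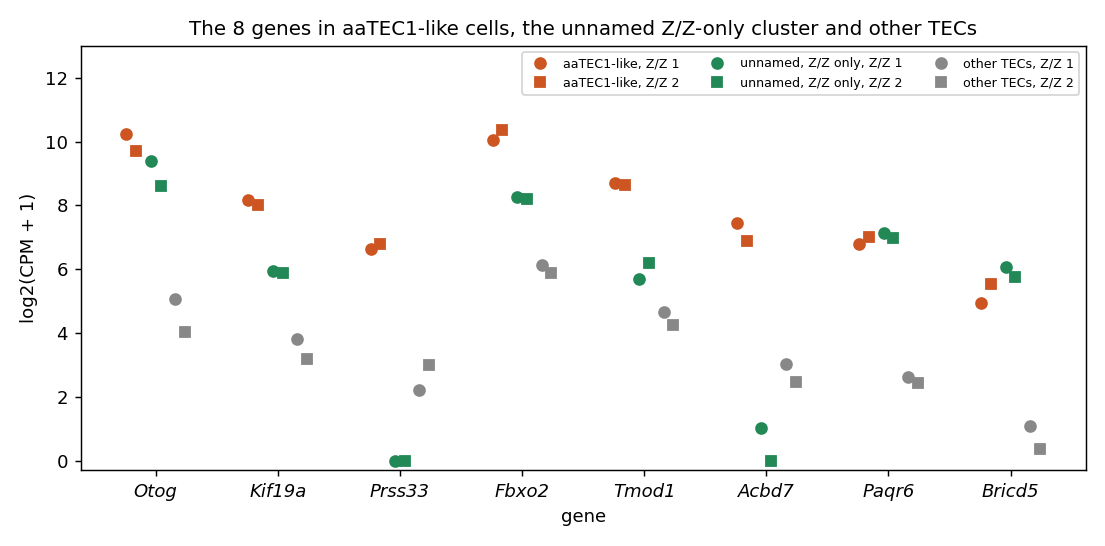
Level of each gene as log2(CPM + 1) in aaTEC1-like cells, in the unnamed cluster found in Z/Z only and in the other TECs, for Z/Z 1 (circles) and Z/Z 2 (squares). Paqr6 and Bricd5 reach the aaTEC1-like level in the unnamed cluster, while Prss33 and Acbd7 are at or near 0 there.

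In the remaining lineages the genes were low. Tmod1 was present in mural cells, which carry contractile actin, at 33.1 and 26.1 CPM in the WT libraries, the latter from 11 cells, and at 32.6 and 42.3 CPM in the Z/Z libraries. Otog in fibroblasts was at 4.81 and 1.35 CPM in Z/Z and 0.120 and 0.351 in WT, each WT value being 1 UMI. Of all Otog UMIs in kept cells, TECs held 99.6% and 99.1% in the WT libraries, against 90.3% and 96.7% for Z/Z. Of Bricd5 UMIs TECs held all in WT, on 10 and 4 UMIs, and 70.3% and 88.1% in the Z/Z libraries, where the unnamed cluster held 65 and 14 of the others. In WT the lowest shares were those of Tmod1 (87.1%) in WT 1 and Paqr6 (76.9%) in WT 2.

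The genes whose levels over the 16 epithelial clusters of Z/Z were most like the mean of the 8 were found among 15710 candidates. Of these clusters, 2 had under 5 cells in a Z/Z library. The nearest was Sox10 (Pearson r = 0.941 over 16 clusters, across clusters that share libraries), then Stc1, a secreted glycoprotein hormone (0.932), Rflnb, a regulator of filamin (0.926), and Cldn14, a claudin of the inner ear and kidney (0.925). Otoa, which encodes otoancorin of the inner ear (0.916), Gas2, a cytoskeletal linker (0.907), and Abcb4, a phospholipid transporter (0.898), followed, then Gm44618, BC006965 and Gm17163 (0.895 to 0.888). The members' own r ranged from 0.849 for Bricd5 to 0.973 for Paqr6. Each member is part of the mean it was set against, so these values are not comparable with those of the candidates. Cldn14 was at 420 and 511 CPM in WT aaTEC1-like cells and at 124 and 99.6 in Z/Z, against at most 3.61 in other TECs. Sox10 was at 34.6, 63.9, 66.0 and 71.6 CPM, against 1.76 to 3.27 in other TECs. Otoa was at 77.9, 24.6, 115 and 120 CPM.

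Lists of related genes were then followed, and none of their members passed the test in aaTEC1-like cells. Genes named here beyond the 3 most abundant of a list were chosen after their values were seen. The counts of list genes that rose or fell stand against 10.8% higher and 12.8% lower over all genes in sums of all TECs, and with few genes a list they are given as a description only. Of 11 genes of the inner-ear matrix other than Otog, Otoa, Coch and Sparcl1 were the most abundant in aaTEC1-like cells. Sparcl1 was lower there than in the other TECs in Z/Z, at 29.15 and 34.8 CPM against 377 and 304. In WT it was at 4.33 and 19.65 CPM against 12.95 and 1.73. Coch, the cochlear matrix protein cochlin, was at 13 and 383 CPM in WT and 46.9 and 76.4 in Z/Z. In the other TECs it was at 16.2 and 61.3 CPM in WT and 37.1 and 8.53 in Z/Z. Tectb, Oc90 and Otos were at 0 in aaTEC1-like cells of all 4 libraries. Of the 10 tested in all TECs, 3 rose (Tecta, Otoa and Sparcl1) and 2 fell (Otogl and Oc90). Tecta was near the floor, at 0 in WT and at most 1.65 CPM in either class of Z/Z. The median log2 change of the list in aaTEC1-like cells was -0.26 over 4 genes tested.

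Fbxo2 works with Skp1, listed here as Skp1a, the adaptor that links F-box proteins to the ligase. Skp1a was at 1770 and 1405 CPM in the aaTEC1-like cells of WT and 696 and 487 in Z/Z, against 131 to 237 in the other TECs of the 4 libraries. Of 9 genes of inner-ear support and hair cells, 7 were tested in all TECs, of which 3 fell (Gjb2, Gjb6 and Myo6) and 0 rose. Gjb2 was at 8.70 to 49.1 CPM in aaTEC1-like cells against 25.4 to 152.7 in other TECs, and was lower in the class in each library. Myo6 was at 64.4 to 88.4 CPM against 65.5 to 159.6. Of the 4 relatives of Fbxo2, Fbxo44, the neighbour on the other strand, was at 39.0, 34.4, 37.6 and 43.3 CPM in aaTEC1-like cells against 5.18 to 13 in other TECs, and rose in all TECs. Fbxo6, which lies 659 bases beyond Fbxo44, was at 21.6 to 32.0 CPM against 17.0 to 28.9. Fbxo17 was at 0 to 8.07 CPM. These F-box genes are close in sequence, and how the authors' counting treats reads that fit more than one was not examined.

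Motile cilium genes were followed beside Kif19a. Of 17 genes, 8 passed the filter in aaTEC1-like cells and 0 were called, and over all TECs 1 rose (Cfap45) and 5 fell (Foxj1, Mcidas, Dnah9, Spag6l and Kif9). Foxj1, the master regulator of motile cilia, was at 0 in WT aaTEC1-like cells and at 0.733 and 0.653 CPM in Z/Z. Tekt1 was at 0 in all 4 libraries. The most abundant in aaTEC1-like cells were Rfx3 (34.4 to 112 CPM), Rfx2 (8.43 to 54.0 CPM) and Cfap45 (9.82 to 32.2 CPM). In the other TECs Rfx3 was at 99.3 to 182 CPM, Rfx2 at 22.4 to 39.2 and Cfap45 at 8.20 to 23.8. The kinesin-8 relatives Kif18a and Kif18b were at most 4.91 CPM in aaTEC1-like cells, and Kif18a was at 8.68 to 20.7 in other TECs.

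Relatives of the other members were followed in the same way. Of 6 tropomodulins and leiomodins, 4 were tested in all TECs. Tmod3, at 34.6 to 93.3 CPM in aaTEC1-like cells, and Lmod1, at 0 to 37.4 CPM, rose in all TECs and in the other TECs. In the other TECs Tmod3 was at 39.3 to 70.6 CPM and Lmod1 at 8.20 to 43.3. Tmod2 was at most 2.75 CPM in aaTEC1-like cells. Of 6 acyl-CoA-binding genes, all tested, Eci2 rose in all TECs. Dbi, the acyl-CoA-binding protein expressed in most cells, was at 678 to 1602 CPM in aaTEC1-like cells against 171 to 300 in other TECs. Acbd3 was at 63.9 to 105 CPM against 82.0 to 104, and Acbd5 at 69.3 to 103 CPM against 78.85 to 137.6. Of 10 PAQR genes, 9 were tested, and 2 rose (Paqr4 and Paqr8) and 2 fell (Paqr5 and Adipor2) in all TECs. Paqr8, also a membrane progestin receptor, was at 91.8 to 157 CPM in aaTEC1-like cells against 14.7 to 37.9 in other TECs. Adipor1 was at 79.4 to 108 CPM against 60.3 to 66.9, and Adipor2 at 34.6 to 64.7 CPM against 54.8 to 162.7.

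Of 14 serine proteases, all tested, 2 rose (Prss8 and Prss36) and 1 fell (Tmprss4) in all TECs, shares near those over all genes. Prss36 was at 39.3 to 50.0 CPM in aaTEC1-like cells against 9.49 to 16.7 in other TECs. Prss8 was at 34.4 to 79.0 CPM against 11.2 to 16.1, and St14 at 176 to 195 CPM against 94.0 to 170.4. Of 9 BRICHOS genes, 8 were tested, and 2 rose (Itm2b and Itm2c) and 4 fell (Sftpc, Gkn1, Tnmd and Cnmd). Itm2b was at 2368 to 5147 CPM in aaTEC1-like cells against 1135 to 2254 in other TECs, and Itm2c at 181 to 216 CPM against 105.3 to 222.8. Gkn3 was at 0 in WT and at 2.20 and 2.61 CPM in Z/Z, and Sftpc, Gkn1 and Gkn2 were at 0 in aaTEC1-like cells of all 4 libraries. Markers of other cell types were summed in the class. The 7 haematopoietic markers summed to 8.07 to 60.6 CPM, against 54.1 to 289 in the other TECs, and the 5 fibroblast markers to 43.3 to 192 CPM, against 94.1 to 314. The 5 Schwann markers, Sox10 among them, summed to 43.3 to 85.5 CPM against 13.5 to 31.5, and the 3 parathyroid markers to at most 12.6 CPM with Gcm2 at 0. Their part in the levels of the 8 genes was not tested.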

How the data were processed

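The 4 libraries were droplet-based 3′ RNA-seq of single cells, and the authors deposited unnormalized UMI counts per gene and barcode, 1 matrix for called cells and 1 for all barcodes. Per the labels, reads had been mapped to mm10 with Cell Ranger 7.01. The 4 summaries of mapping per library were not used.

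The 8 genes and all gene lists were chosen with earlier results of these data known. Of 13981 called barcodes, 10167 had more than 1000 genes and under 20% mitochondrial UMIs, and 9771 were kept after removal of the 3.9% with the highest Scrublet scores in each library, since its own threshold marked 1.04%. Features of ribosomal proteins and haemoglobins, 109 in all, were removed. Cells were clustered (scanpy 1.11.5, leidenalg 0.10.2, resolution 1) without the 8 genes and without any listed gene, 179 in all, and named from fixed markers. The thresholds for naming were set after seeing the data. CPM is a gene's UMIs per 1000000 UMIs of the same cells and library.

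For tests, UMI counts were summed per library and fitted with edgeR 4.0.16 (quasi-likelihood F test, TMM scaling, filterByExpr, two-sided) over all genes, with Benjamini-Hochberg adjustment and a threshold of 0.05. DESeq2 1.42.0 was an alternative. Simulated library sums were drawn with the same fixed spread for every gene, without a model of single cells, and 200 genes were changed 4-fold. The fit called 165 of the 191 tested in sums of all TECs, 73 of 171 in sums of aaTEC1-like cells and 169 of 189 in sums of the other TECs. Shares are given with exact Clopper-Pearson intervals at 95%, which cover counting error only. For a count of 0, the limit given is instead 3 divided by the number of cells. For Acbd7 in the 15 aaTEC1-like cells of WT 1 that is 20.0%, and the exact interval ends at 21.8%. To compare shares across depths, cells were thinned to 2000 UMIs and shallower cells were left out. By plan, genes named beyond the 8 were up to 3 per list with the highest mean CPM in aaTEC1-like cells, any that passed the test in those cells, and the 10 of most like pattern. Other list genes named in the Results were chosen after their values were seen. Positions come from GENCODE vM21 (GRCm38).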

Additional observations from a re-analysis of the deposited data

Results flagged for a closer look

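No group held the 4 libraries that a search for outlying libraries needs. Signals in data outside the comparisons, above the level in both WT libraries or present where WT had no cells, were the following. Barcodes under 100 UMIs held more of each of the 8 genes in Z/Z than in WT. The mean over the Z/Z libraries was 134 CPM for Otog, 188 for Fbxo2, 50.5 for Tmod1, 40.2 for Kif19a, 19.6 for Paqr6, 14.6 for Acbd7, 12.5 for Prss33 and 6.32 for Bricd5. The unnamed cluster seen in Z/Z alone held 6 of the 8 genes above 3 UMIs in both libraries. The means were 530 CPM for Otog, 299 for Fbxo2, 134 for Paqr6, 61.5 for Tmod1, 60.2 for Bricd5 and 59.0 for Kif19a.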

How the results depend on the processing

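In sums of all TECs, where 7 of the 8 genes and 4473 of all genes were called, thinning gave 4 and 2667, and leaving out both copies of shared barcodes gave 0 and 1. Leaving out 1 library gave 0 to 8 and 0 to 4659, with 0 and 0 without Z/Z 1 and 5 and 1257 without Z/Z 2. In these sums the log2 changes of the 8 genes were positive in every alternative that tested them, from 0.88 to 4.09. In aaTEC1-like cells, where 0 and 2 were called, DESeq2 gave 1 and 87, no filter on low counts 1 and 309, both copies of shared barcodes left out 1 and 190, and 1 library left out 1 to 2 and 24 to 654. The count of all genes there was 21 with over 500 genes per cell, 1 with under 10% mitochondrial UMIs, 1 without doublet removal, 16 with thinning, 21 with free RNA subtracted, 1 at resolution 0.5 and 5 with a balanced neighbour graph. Keeping shared barcodes only where they had more UMIs, an alternative chosen after seeing the data, left the calls among the 8 genes at 7, 0 and 3. In the other TECs, where 3 and 3672 were called, the count of the 8 genes was 5 without a filter, 5 with over 500 genes, 5 with under 10% mitochondrial UMIs, 6 with the balanced graph, 1 with thinning, 1 with free RNA subtracted and 0 without both copies of shared barcodes (1 of all genes). With 1 library left out it was 0 to 4 (0 to 3263 of all genes), again 0 without Z/Z 1 and 1 without Z/Z 2. When 1 library is left out, an arm is a single library, assumed to vary like the other genotype. The median log2 difference of 4.90 was 3.77 with a pseudocount of 10 CPM and 2.01 for cells chosen by Cldn3. The causes of these shifts were not tested.

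Signs turned where changes were small. In aaTEC1-like cells, thinning gave 0.07 for Kif19a, 0.94 for Paqr6 and -0.66 for Bricd5, the balanced graph 0.25 for Kif19a and 0.48 for Paqr6, and leaving out both copies of shared barcodes -0.51 for Fbxo2 and -0.04 for Bricd5. With 1 library left out, the log2 changes ran from -0.62 to 0.10 for Kif19a, -0.37 to 0.87 for Prss33, -0.17 to 0.94 for Fbxo2, -0.05 to 0.50 for Tmod1, -0.51 to 0.39 for Paqr6 and -0.21 to 1.39 for Bricd5. In the other TECs, Kif19a was -0.22 with thinning and Acbd7 -0.31 with free RNA subtracted. Acbd7 there ran from -0.35 to 0.87 with 1 library left out.

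The labels number replicates 1 and 2 in both groups. The replicate block gave 8 calls among the 8 genes in all TECs, 1 in aaTEC1-like cells (34 of all genes) and 5 in the other TECs. The deviations of same-numbered libraries correlated at -0.101 over 17632 genes, and nothing in the labels ties the numbers together. With the numbers crossed, a fit added after seeing the data, the calls were 7, 1 and 2 of the 8 genes and 3840, 39 and 3331 of all genes.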
